A study of Mus musculus with 8 samples.

Results

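The 46 genes described here encode soluble enzymes and membrane proteins of the lysosome, together with progranulin and the transcription factors TFEB and TFE3. They were chosen by name for their known roles and form 5 classes. A probe set that carries a single gene symbol was found for 45 of them, and 40 of these passed the intensity filter, against 11364 of 18193 genes on the whole array. RNA came from neural stem cells (NSCs) that had been derived from mouse embryonic stem (ES) cells and were grown as a dividing culture with EGF and FGF2. One group of 4 cultures was exposed to X-rays at a total dose of 10 Gy and collected on day 7 (irr NSCs), and the other 4 cultures were not irradiated (non-irr NSCs). The labels give no other agent or allele by which the groups differ. Their protocol text names the irradiation for every sample, and the groups were taken from the titles. Cultures after irr were not passaged, the day on which non-irr cells were collected is not stated, and which of the study's ES lines gave the array RNA is not given in the sources used here.

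Lysosomes are acidic organelles in which hydrolases break down proteins, glycans and lipids delivered by endocytosis and autophagy. Their membrane is built of heavily glycosylated proteins that shield it from these enzymes, and of channels and transporters that export the products. Many of the genes share a short promoter element around the letters CACGTG, to which TFEB, TFE3 and the related factor MITF bind, and loss of single hydrolases in humans causes storage diseases that often strike the brain. An increased β-galactosidase activity of lysosomal origin is a widely used stain for senescent cells.

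On the 4 irr and 4 non-irr arrays the lysosomal genes stood higher in irr NSCs in nearly all cases. Values are log2 of the deposited array intensity, so that a difference of 1 is 2-fold, and a gene was called when its difference between irr and non-irr NSCs had a limma adjusted p under 0.05. Of the 40 genes tested, 38 were called higher in irr NSCs, against 40.2% of all genes tested. Npc1 alone was called lower, beside 37.1% of all genes, and Tfeb was not called. At least 2-fold higher were 21 of the 40, against 8.88% of all genes, and none was at least 2-fold lower, against 6.16%. Every irr array lay above every non-irr array for 37 of the 40, which holds for 38.4% of all genes. The median log2 difference was 1.07 over the lysosomal genes and 0.01 over all genes tested, and 7.93% of all genes had a difference above the lysosomal median. Replicate arrays lay close together, with a median SD of 0.08 in either group, and no lysosomal gene had an SD above 0.15 in irr or 0.16 in non-irr NSCs. Centring the arrays on 7 reference genes raised the median of all genes to 0.17 and that of the lysosomal genes to 1.23. The shares of all genes called higher and lower then became 51.4% and 25.8%. These reference genes were not constant, since 3 of the 7 were called lower in irr NSCs and 1 higher. Their median log2 difference was -0.10, with the largest fall in Pgk1 (-0.66 ± 0.05), so centring on them shifts all differences upward.

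**Figure D1:**
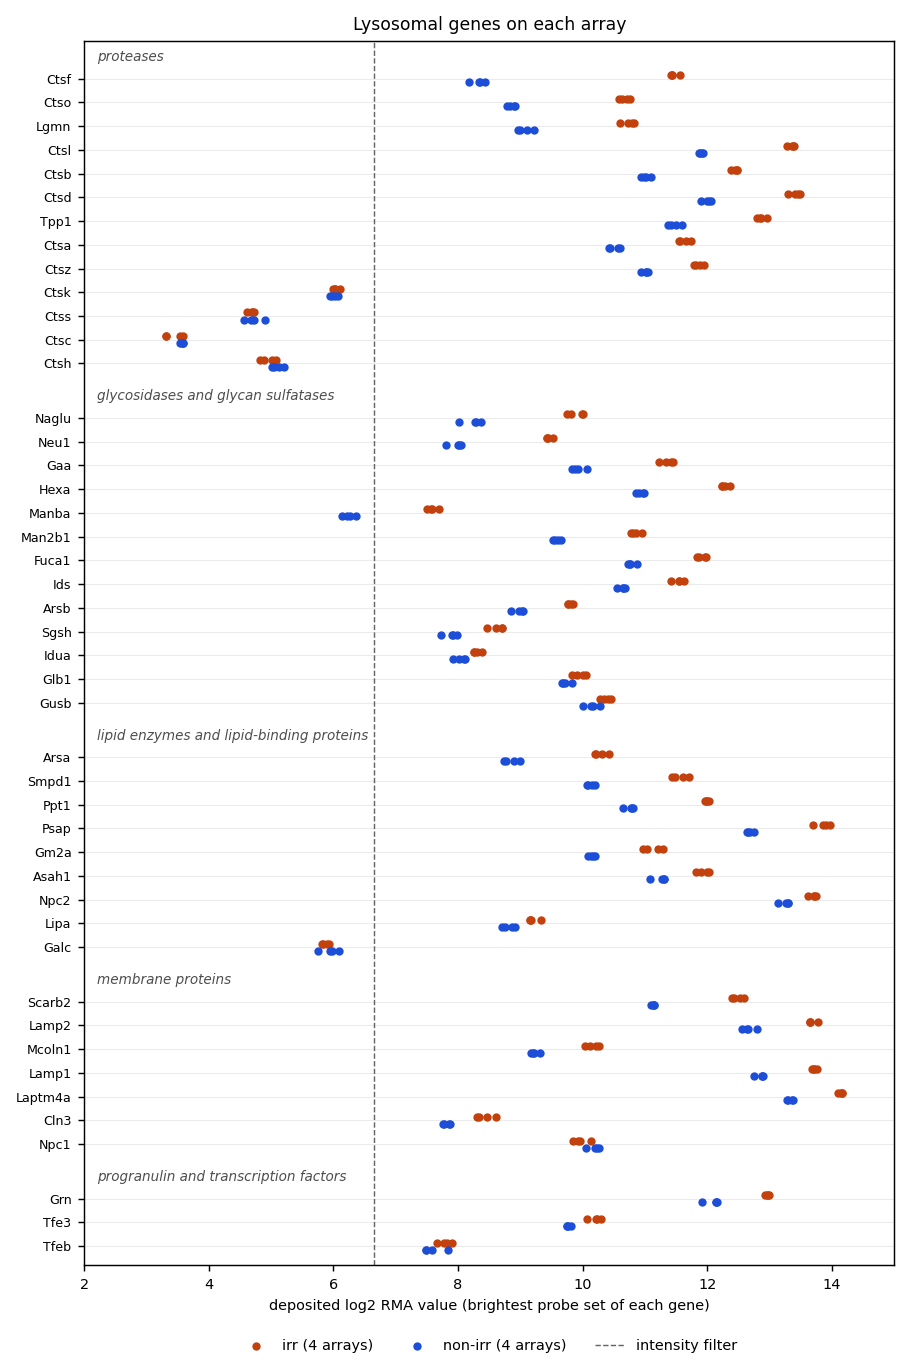
Deposited log2 value of the brightest probe set of each lysosomal gene (x axis) on the 4 irr arrays (upper, orange dots) and the 4 non-irr arrays (lower, blue dots), grouped by class, with the intensity filter of 100 as a dashed line. Orange and blue dots do not overlap for 37 of the 40 genes tested, the 5 genes left of the line were not tested, and levels cannot be compared between genes because each probe set binds with its own strength.

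Below an intensity of 100 on all 8 arrays, and thus with no call, were 5 lysosomal genes. These are the cysteine protease genes Ctsc, Ctsh, Ctsk (the collagen-degrading protease of osteoclasts) and Ctss (a protease of antigen-presenting cells), and Galc, the galactosylceramidase of myelin lipid turnover. Their log2 values ran in irr and non-irr NSCs from 3.32 to 3.59 and 3.53 to 3.59 for Ctsc, and from 4.61 to 4.73 and 4.57 to 4.90 for Ctss. Cd63 has no probe set with a single symbol in the annotation used and was not analysed here.

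The promoters of the lysosomal genes were read for the letters bound by TFEB and its relatives. Many lysosomal genes are known to share this element, so a share above that of all genes describes the list and not its response to irr. The windows are those of RefSeq on GRCm38.p6, from 250 bases before to 50 bases after each annotated start, and 42 of the 46 genes have one. The motifs searched were CACGTG, its form TCACGTG with 1 flanking base and TCACGTGA with both, on both strands, each longer form being also a match to the shorter. CACGTG was found in 13 of the 42 genes (31.0%), against 11.8% of the genes tested on the array that have a window and 8.09% of all 27025 genes with one. TCACGTG was found in 11 (26.2%), against 7.1% and 4.29%. TCACGTGA was found in 4 (9.52%), against 2.29% and 1.12%, and the 4 are Cln3, Ctsa, Ctsd and Mcoln1. Among the genes at least 2-fold higher that have a window, CACGTG was present in 8 of 20, TCACGTG in 6 (30.0%) and TCACGTGA in 2, and among the other 17 tested in 5 (29.4%), 5 (29.4%) and 2 (11.8%). A match of letters is a description of the window and shows no binding.

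The stretches below are shown for the genes with TCACGTGA, for the 3 genes with the largest rise in irr NSCs (Ctsf, Ctso and Lgmn) and for Lamp1, which was added after its 4 matches were seen. Each is written 5′ to 3′ on the strand of the gene, with CACGTG and its matching T or A in capitals, and positions are those of the first letter of CACGTG counted from the annotated start as 0. Ctsa lies at chr2:164833747-164833797 (plus strand, matches at -12 and 5), Ctsd at chr7:142387906-142387939 (minus, -98, with a further match to TCACGTG at -245), Cln3 at chr7:126583338-126583399 (minus, -149 and -121) and Mcoln1 at chr8:3500434-3500493 (plus, -71 and -45). Ctsf lies at chr19:4855072-4855105 (plus, -79), Lgmn at chr12:102439122-102439155 (minus, -49) and Lamp1 at chr8:13159086-13159165 (plus, -61, -45, -28 and -15). The Ctso window holds no match, and its 60 bases before the start are given, chr3:81932541-81932600 (plus).
Ctsa: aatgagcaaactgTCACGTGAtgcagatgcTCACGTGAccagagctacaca
Ctsd: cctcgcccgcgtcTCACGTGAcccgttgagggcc
Cln3: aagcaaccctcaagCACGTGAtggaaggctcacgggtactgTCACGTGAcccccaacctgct
Mcoln1: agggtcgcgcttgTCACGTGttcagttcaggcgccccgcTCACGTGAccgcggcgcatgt
Ctsf: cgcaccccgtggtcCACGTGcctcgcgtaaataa
Lgmn: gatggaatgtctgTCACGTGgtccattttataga
Lamp1: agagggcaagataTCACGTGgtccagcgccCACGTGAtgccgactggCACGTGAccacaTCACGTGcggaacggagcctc
Ctso: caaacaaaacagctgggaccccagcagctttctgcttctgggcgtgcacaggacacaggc
Ctsf, with the largest rise, thus holds the bare CACGTG with neither flanking base, and Ctso holds none in its window. The 4 genes with TCACGTGA rose by 1.43 (Ctsd), 1.12 (Ctsa), 0.93 (Mcoln1) and 0.62 (Cln3) on the log2 scale. This does not set them apart, since 38 of the 40 lysosomal genes tested were called higher. Further genes with TCACGTG are Arsa, Gaa, Glb1, Lamp1, Lgmn, Naglu and Sgsh, and Ctsl holds CACGTG alone.

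The proteases showed the highest median of the 5 classes, a log2 difference of 1.44. All 9 proteases tested were called higher in irr NSCs, against 40.2% of all genes tested, and 8 were at least 2-fold higher, against 8.88%. Ctsf encodes cathepsin F, a cysteine protease of the papain type. Its log2 values on arrays 1 to 4 of each group were 11.41, 11.43, 11.43 and 11.56 in irr and 8.33, 8.35, 8.17 and 8.43 in non-irr NSCs. The lowest irr array lay 2.98 above the highest non-irr array, and the log2 difference was 3.14 ± 0.06 (SE of the fit, as for all differences given in this form), an 8.8-fold rise with an adjusted p of 3.8e-10. Only 0.326% of all genes tested had a larger difference. Ctso, for cathepsin O of the same family, read 10.63, 10.75, 10.58 and 10.71 in irr and 8.84, 8.91, 8.9 and 8.78 in non-irr NSCs, again with no overlap, and rose by 1.81 ± 0.05 on the log2 scale (3.5-fold). Legumain (Lgmn) cleaves after asparagine and processes other lysosomal proteases. It read 10.6, 10.72, 10.83 and 10.79 in irr and 8.96, 9.0, 9.11 and 9.21 in non-irr NSCs, a log2 difference of 1.67 ± 0.07.

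A set of 4 proteases that are abundant in most cells rose by almost the same amount. Ctsl, a cysteine endopeptidase, read 13.28, 13.35, 13.39 and 13.37 in irr and 11.93, 11.86, 11.88 and 11.91 in non-irr NSCs and differed by 1.45 ± 0.04. Ctsb, a cysteine protease that also trims dipeptides, read 12.38, 12.45, 12.48 and 12.47 in irr and 11.02, 10.98, 10.93 and 11.09 in non-irr NSCs, a difference of 1.44 ± 0.05. Ctsd, the main aspartic protease of the lysosome, read 13.29, 13.41, 13.46 and 13.49 in irr and 12.02, 11.99, 11.89 and 12.05 in non-irr NSCs and differed by 1.43 ± 0.06. In all 3 the groups were separated by more than 1 log2 unit. Tpp1 removes tripeptides from the N terminus of proteins and is the gene of a childhood storage disease of neurons. Its values were 12.86, 12.84, 12.79 and 12.96 in irr and 11.42, 11.49, 11.36 and 11.59 in non-irr NSCs, a log2 difference of 1.40 ± 0.06. The 95% intervals of the differences of these 4 genes overlap, from 1.36 to 1.55 for Ctsl to 1.26 to 1.53 for Tpp1. Ctsa, a serine carboxypeptidase that also protects β-galactosidase and neuraminidase from degradation, read 11.56, 11.54, 11.65 and 11.73 in irr and 10.56, 10.42, 10.43 and 10.59 in non-irr NSCs and rose by 1.12 ± 0.06. Ctsz, a carboxypeptidase, rose by 0.86 ± 0.05, less than 2-fold.

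**Figure D2:**
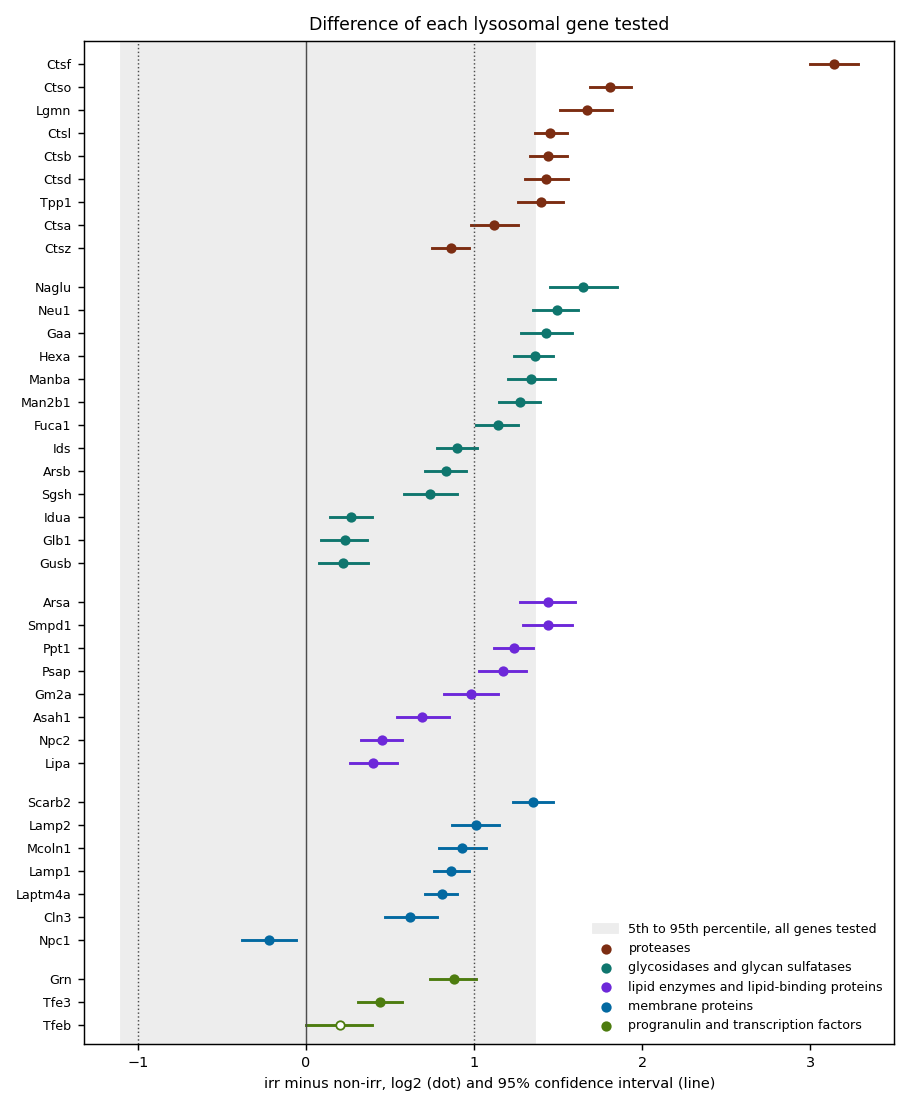
Log2 difference, irr minus non-irr NSCs, of the 40 lysosomal genes tested (dots, open where not called) with 95% confidence intervals (lines), by class, beside the 5th to 95th percentile of all genes tested (grey, -1.10 to 1.36). Ctsf stands apart at 3.14, Npc1 is the only gene left of 0, and dotted lines mark 2-fold.

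The glycosidases and glycan sulfatases had a median log2 difference of 1.14. All 13 were called higher in irr NSCs, against 40.2% of all genes tested. They fell into 7 genes at 2-fold or more, against 8.88% of all genes, 3 between 0.74 and 0.90, and 3 at or under 0.27. Naglu, which removes N-acetylglucosamine from heparan sulfate, read 9.75, 9.81, 9.98 and 10.0 in irr and 8.27, 8.01, 8.28 and 8.37 in non-irr NSCs and rose by 1.65 ± 0.09 (3.14-fold). Neu1, the lysosomal sialidase, read 9.42, 9.45, 9.42 and 9.52 in irr and 8.0, 7.8, 8.04 and 8.02 in non-irr NSCs, a difference of 1.49 ± 0.06. For both, the groups were 1.38 apart at their nearest arrays. Gaa degrades glycogen. It read 11.22, 11.34, 11.44 and 11.41 in irr and 9.93, 9.83, 9.88 and 10.07 in non-irr NSCs and rose by 1.43 ± 0.07. Hexa, the α subunit of β-hexosaminidase, read 12.24, 12.24, 12.29 and 12.37 in irr and 10.91, 10.97, 10.85 and 10.99 in non-irr NSCs, a difference of 1.36 ± 0.05. No irr array of either gene came within 1 log2 unit of a non-irr array.

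Enzymes of glycoprotein breakdown also rose. Man2b1, an α-mannosidase, read 10.78, 10.81, 10.85 and 10.95 in irr and 9.55, 9.52, 9.6 and 9.65 in non-irr NSCs and rose by 1.27 ± 0.05. Fuca1, which removes fucose, read 11.83, 11.87, 11.96 and 11.97 in irr and 10.72, 10.75, 10.87 and 10.75 in non-irr NSCs and rose by 1.14 ± 0.05. Both had separate groups. Manba, the β-mannosidase, read 7.58, 7.5, 7.56 and 7.7 in irr and 6.21, 6.13, 6.36 and 6.27 in non-irr NSCs, a fitted difference of 1.34 ± 0.06. All non-irr arrays of Manba were below the intensity filter (log2 6.64), so that it entered the test through its irr values alone. Set against that filter value its rise was at least 1.92-fold, and it is counted among the genes at 2-fold or more by its fitted difference.

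The genes of heparan and dermatan sulfate breakdown moved by unequal amounts. Besides Naglu, the sulfatases Arsb and Sgsh rose by 0.83 ± 0.05 and 0.74 ± 0.07, whereas Idua, the α-iduronidase, rose by only 0.27 ± 0.06 (adjusted p = 0.0017). The brightest probe set of the iduronate sulfatase gene Ids read 11.62, 11.55, 11.42 and 11.55 in irr and 10.65, 10.65, 10.55 and 10.68 in non-irr NSCs and rose by 0.90 ± 0.05, and a second tested probe set rose by 0.49 ± 0.04. A further, much dimmer one read 6.37, 6.58, 6.53 and 6.49 in irr and 6.65, 6.57, 6.61 and 6.79 in non-irr NSCs and was called lower by a small margin, with a log2 difference of -0.16 (adjusted p = 0.041) and overlapping groups. All its irr arrays were below the filter, so that against the filter value it was at least 1.01-fold lower.

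Glb1 encodes the lysosomal β-galactosidase whose activity is stained in senescent cells. Its log2 values were 9.9, 9.83, 10.0 and 10.05 in irr and 9.72, 9.67, 9.68 and 9.82 in non-irr NSCs. The lowest irr array exceeded the highest non-irr array by 0.02 only, and the difference of 0.23 ± 0.06 (1.17-fold, adjusted p = 0.0066) was smaller than that of 36.2% of all genes tested. Without irr replicates 3 and 4 it was 0.15 and no longer called (adjusted p = 0.071). Gusb, the β-glucuronidase, gave no stable direction. Its brightest probe set read 10.27, 10.34, 10.41 and 10.46 in irr and 10.17, 10.13, 10.01 and 10.27 in non-irr NSCs, with touching groups and a difference of 0.22 ± 0.07 (adjusted p = 0.011). Its other probe set read 7.92, 7.78, 7.99 and 7.99 in irr and 8.33, 8.28, 8.58 and 8.27 in non-irr NSCs and was called lower (-0.45, adjusted p = 5.5e-04), and the mean of both probe sets was -0.11 and not called (adjusted p = 0.056).

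The lipid enzymes and lipid-binding proteins had a median log2 difference of 1.07. All 8 tested were called higher, against 40.2% of all genes tested, and 4 were at least 2-fold higher, against 8.88%. Arsa, which removes sulfate from the myelin lipid sulfatide, read 10.19, 10.22, 10.42 and 10.31 in irr and 8.9, 8.77, 8.73 and 8.99 in non-irr NSCs and rose by 1.44 ± 0.07 (2.71-fold). Smpd1, the acid sphingomyelinase, read 11.43, 11.48, 11.61 and 11.71 in irr and 10.15, 10.08, 10.07 and 10.19 in non-irr NSCs and rose by 1.44 ± 0.07. In both the nearest arrays of the groups were at least 1.20 apart. Ppt1, which cleaves fatty acids from lipid-modified proteins, read 11.99, 11.96, 11.97 and 12.03 in irr and 10.79, 10.81, 10.64 and 10.77 in non-irr NSCs, a difference of 1.24 ± 0.05. Psap, the precursor of the saposins that present sphingolipids to their hydrolases, read 13.96, 13.7, 13.9 and 13.85 in irr and 12.69, 12.65, 12.63 and 12.75 in non-irr NSCs and rose by 1.17 ± 0.06.

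The remaining members of this class rose less than 2-fold. Gm2a, the activator protein that presents ganglioside GM2 to β-hexosaminidase, rose by 0.98 ± 0.07, and the acid ceramidase Asah1 rose by 0.69 ± 0.07. The genes of cholesterol release from the lysosome gave the smallest values. Npc2, the soluble cholesterol carrier, rose by 0.45 ± 0.05. Lipa, the acid lipase that frees cholesterol from its esters, read 9.16, 9.16, 9.17 and 9.33 in irr and 8.75, 8.71, 8.91 and 8.86 in non-irr NSCs on its brightest probe set and rose by 0.40 ± 0.06 without overlap. Its other probe sets were not called. One read 7.85, 7.72, 8.07 and 8.07 in irr and 7.79, 7.7, 7.89 and 7.79 in non-irr NSCs (0.13), and the other 8.33, 7.46, 7.97 and 7.68 in irr and 8.06, 7.93, 8.18 and 7.56 in non-irr NSCs (-0.07), with overlapping groups in both. The identifier of the brightest Lipa probe set marks probes that may also match other transcripts, as do those of the brightest probe sets of Gaa, Grn, Lamp2 and Mcoln1.

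Among the membrane proteins 6 of 7 were called higher and 1 lower, against 40.2% and 37.1% of all genes tested. Their median log2 difference was 0.86. Scarb2, the receptor that carries glucocerebrosidase to the lysosome, read 12.4, 12.52, 12.42 and 12.58 in irr and 11.13, 11.15, 11.09 and 11.14 in non-irr NSCs and had the largest rise of the class, 1.35 ± 0.05 (2.55-fold). Lamp2, a major glycoprotein of the membrane that also serves chaperone-mediated autophagy, read 13.64, 13.77, 13.64 and 13.64 in irr and 12.65, 12.8, 12.55 and 12.64 in non-irr NSCs. The groups did not overlap, and the difference of 1.01 ± 0.06 lay at the 2-fold line. It was 0.98 without irr replicate 2 and likewise 0.98 without non-irr replicate 3, whereas the 3 further Lamp2 probe sets differed by 1.25 to 1.68. Its partner glycoprotein Lamp1, with 4 CACGTG letters in the stretch shown above, rose by 0.86 ± 0.05. Mcoln1, a calcium channel of the lysosomal membrane, rose by 0.93 ± 0.06, Laptm4a by 0.81 ± 0.04 and Cln3, the gene of juvenile neuronal ceroid lipofuscinosis, by 0.62 ± 0.07.

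Npc1 was the exception. It encodes the membrane protein that exports cholesterol from the lysosome and takes it over from Npc2. Its log2 values were 10.14, 9.95, 9.92 and 9.85 in irr and 10.23, 10.2, 10.05 and 10.26 in non-irr NSCs. The groups overlapped, since irr replicate 1 lay above non-irr replicate 3, and the difference of -0.22 ± 0.07 passed the threshold narrowly (adjusted p = 0.019). It did not pass without irr replicate 4 (-0.18, adjusted p = 0.055), without non-irr replicate 4 (-0.20, adjusted p = 0.052), without irr replicates 3 and 4 (-0.14, adjusted p = 0.16) or with centring on the reference genes (-0.06, adjusted p = 0.49).

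Progranulin and the transcription factors had the lowest median of the classes, 0.44 over 3 genes. Of these, 2 were called higher, against 40.2% of all genes tested, and none reached 2-fold. Grn encodes progranulin, a secreted and lysosomal protein whose loss in humans causes dementia or, in homozygotes, lysosomal storage. It rose by 0.88 ± 0.06, and its other probe sets rose by 0.95 and 1.36. Tfe3 rose by 0.44 ± 0.06 (adjusted p = 6.1e-05). Tfeb read 7.66, 7.77, 7.82 and 7.91 in irr and 7.49, 7.48, 7.58 and 7.83 in non-irr NSCs, where non-irr replicate 4 lay above 3 of the 4 irr arrays. Its difference of 0.20 ± 0.09 had a 95% interval of 0.00 to 0.39 and an adjusted p of 0.06. Without non-irr replicate 4 it was 0.27 and called (adjusted p = 0.0056), and without irr replicate 1 it was 0.24 and called (adjusted p = 0.034). The arrays measure RNA of these factors and not their entry into the nucleus, through which they are known to be controlled.

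The rise was read by more than 1 probe set for many of the genes. Over all lysosomal genes the array holds 100 probe sets, of which 29 were below the filter. Beside the brightest, 31 further probe sets of 20 genes were tested. Of these 27 were called higher in irr NSCs, 13 of them at least 2-fold. Over all genes tested, each read by its brightest probe set, the shares were 40.2% and 8.88%. The sign of the brightest probe set was shared by 28 of the 31. Among them, a probe set each of Neu1 and Ppt1 was below the filter on all non-irr arrays and passed it through irr values alone, with rises of at least 1.27-fold and 1.04-fold against the filter value. Both that were called lower belong to Gusb and Ids, and both that were not called to Lipa. The largest of these values was that of a Ctsb probe set at 2.09 ± 0.06, with 8.84, 9.04, 8.97 and 9.08 in irr and 6.87, 6.89, 6.9 and 6.9 in non-irr NSCs. Dim probe sets often gave less, as in Ctsa (0.34), Man2b1 (0.33), Smpd1 (0.33) and Ppt1 (0.16). With every probe set of a gene averaged, the median over the lysosomal genes was 0.81.

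**Figure D3:**
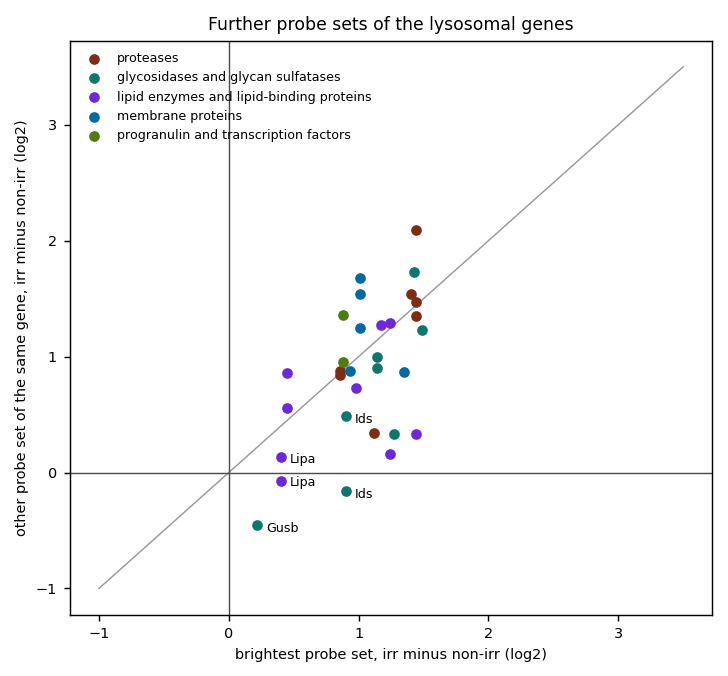
Log2 difference, irr minus non-irr NSCs, of each of the 31 further probe sets tested (y axis) against that of the brightest probe set of the same gene (x axis), coloured by class, with the line of equal values in grey. Of the 31 points 28 lie above 0 on both axes, and the 3 below 0 on the y axis are probe sets of Gusb, Ids and Lipa.

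The single arrays of each group lay close together. Over the 40 genes, the median distance from the non-irr mean was 1.02, 1.03, 1.10 and 1.16 on irr arrays 1 to 4, and between -0.04 and 0.06 on the non-irr arrays. Irr replicates 3 and 4 were slightly higher than replicates 1 and 2. The irr array 4 lay above its group mean for 38 of the 40 genes, and irr arrays 1 and 2 did so for 10 and 9. Non-irr array 4 lay above its group mean for 33, and non-irr arrays 1 to 3 did so for 27, 17 and 12. Over all probe sets tested, irr replicates 1 and 2 also lay on the other side of the second principal component from replicates 3 and 4, an axis that held 3.68% of the variance against 92.0% for the first, which separated irr from non-irr NSCs. On that second component non-irr replicate 4 (-12.12) lay near irr replicates 3 (-12.0) and 4 (-14.41). Non-irr replicates 1 to 3 lay at -2.12, 8.02 and 6.23. The source of these shifts was not tested. The lysosomal median was 1.05 without irr replicates 3 and 4, and 1.14 without irr replicates 1 and 2.

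**Figure D4:**
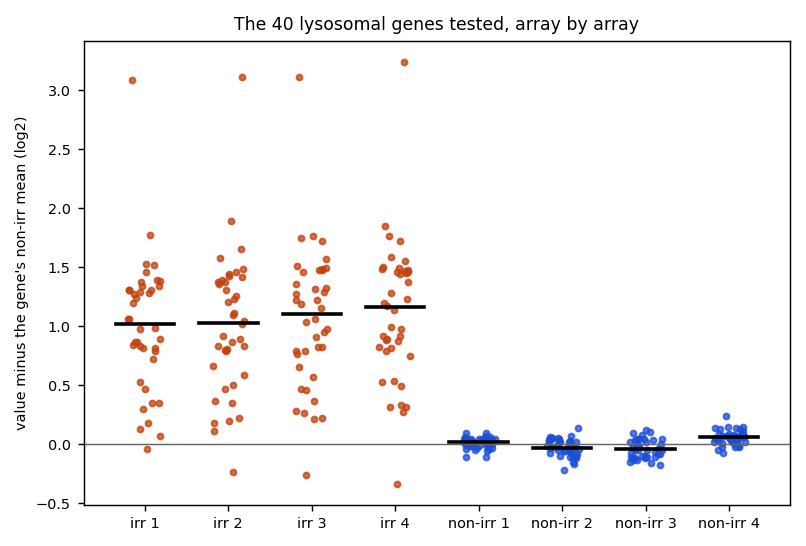
Value of each of the 40 lysosomal genes tested minus the mean of that gene in non-irr NSCs (y axis, log2) on each irr array (orange) and each non-irr array (blue), with the median as a black bar. The medians are 1.02 to 1.16 on the irr arrays and -0.04 to 0.06 on the non-irr arrays.

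Other genes of the lysosome were examined in 5 further lists of 69 genes, 56 of them tested. Of the 56, 42 rose and 6 fell, against 40.2% and 37.1% of all genes, 11 rose at least 2-fold, against 8.88%, and the median log2 difference was 0.50. Other hydrolases gave 12 higher and 1 lower of 16, with a median of 0.45. The largest rises were those of Plbd2, a phospholipase B-like protein (1.36 ± 0.07), and Aga, which removes asparagine from glycan chains (1.33 ± 0.05). Next came the dipeptidyl peptidase Dpp7 (1.12 ± 0.06). Gla, the α-galactosidase of Fabry disease, fell (-0.45 ± 0.05). Other membrane proteins gave 13 higher and 2 lower of 17, with a median of 0.52. Cd68, a glycoprotein abundant in macrophages, read 7.87, 8.11, 8.31 and 8.13 in irr and 5.39, 5.33, 5.64 and 5.49 in non-irr NSCs, where all arrays were below the filter, a rise of at least 2.75-fold against the filter value. Tmem106b, a regulator of lysosome size and acidity, rose by 1.76 ± 0.12, and Mfsd8 and Ostm1 rose by 1.06 ± 0.07 and 1.06 ± 0.06. The calcium channel gene Tpcn1 (-0.33 ± 0.06) and the peptide transporter gene Abcb9 (-0.32 ± 0.07) fell.

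Of the genes that sort enzymes to the lysosome, 7 of 13 were higher and 3 lower, against 40.2% and 37.1% of all genes tested, with a median of 0.34. Igf2r, the large mannose 6-phosphate receptor that captures new hydrolases, read 11.98, 11.65, 11.47 and 11.42 in irr and 10.4, 10.34, 10.33 and 10.06 in non-irr NSCs and rose by 1.35 ± 0.12. Sumf1, which activates all sulfatases, rose by 0.84 ± 0.05. The enzyme that places the mannose 6-phosphate tag changed in opposite ways in its subunits, with Gnptg at 0.77 ± 0.08 and Gnptab at -0.22 ± 0.05. The adaptor Gga2 (-0.29 ± 0.05) and Cln6 (-0.40 ± 0.06), which acts in the endoplasmic reticulum, fell.

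All 7 regulators of lysosomal gene expression that passed the filter were called higher, against 40.2% of all genes tested, with a median of 0.97. The list is mixed, since it holds the factor Mitf as well as genes such as Rragd that restrain such factors, so the count has no single meaning. Fnip1, which with folliculin acts on the Rag GTPases, rose by 1.74 ± 0.09. The transcription factor Mitf read 8.18, 8.17, 8.05 and 8.15 in irr and 6.62, 6.62, 6.97 and 6.54 in non-irr NSCs and rose by 1.45 ± 0.09. Its non-irr arrays other than replicate 3 were below the filter (log2 6.64), so the size of this rise is uncertain. Rragd, a Rag GTPase through which TFEB and TFE3 are held in the cytoplasm, rose by 1.01 ± 0.04. Of the cystatins, inhibitors of cysteine cathepsins, the 3 tested rose, Cstb by 0.92 ± 0.05, Cst3 by 0.55 ± 0.06 and Cst6 by 0.45 ± 0.06, and none reached 2-fold.

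**Figure D5:**
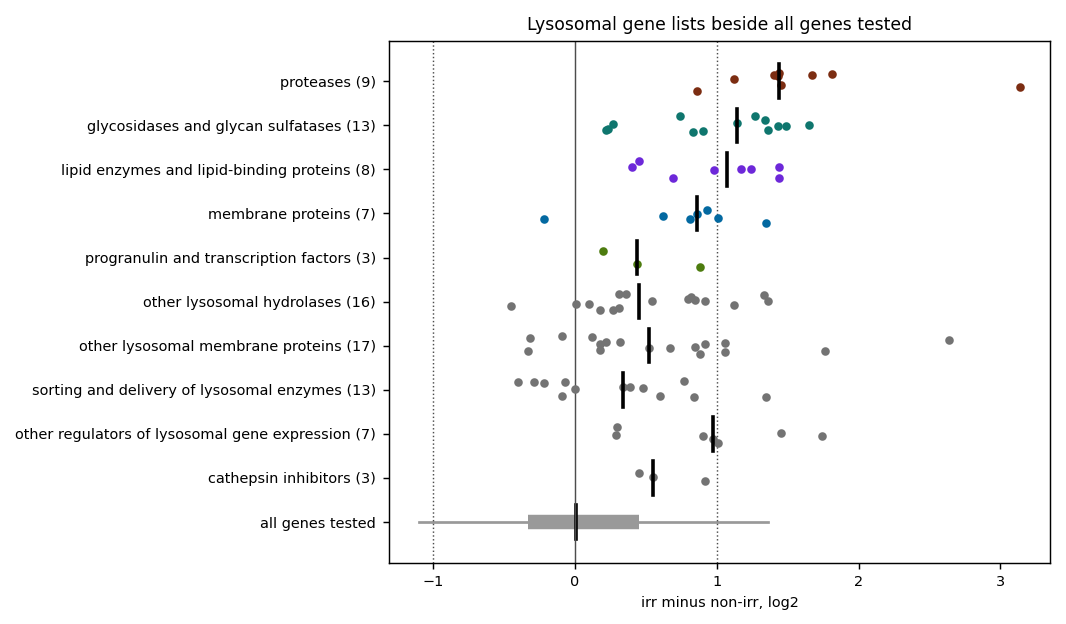
Log2 difference, irr minus non-irr NSCs, of each gene tested (dots) in the 5 lysosomal classes (coloured) and 5 further lists (grey), with list medians as black bars, the number tested in brackets, and all genes tested as a box of the middle 50% with a line from the 5th to the 95th percentile. List medians run from 1.44 for the proteases to 0.34 for the sorting genes, and the median of all genes is 0.01.

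Lysosomal genes are strongly expressed in macrophages and astrocytes, so markers of other cell types are given beside them. In these bulk samples more cells of a type and more RNA per cell cannot be told apart. Of 14 microglia and macrophage markers, 12 were below the filter on all 8 arrays, among them Ptprc, Itgam, Tyrobp and C1qa. Of the other 2, P2ry12 rose by 0.52 ± 0.08 and Csf1r differed by -0.05 and was not called, and the summed intensity of the list was 759 to 797 in irr and 695 to 800 in non-irr NSCs. Of 8 astrocyte markers, 7 were called higher and 1 lower, against 40.2% and 37.1% of all genes tested, and 3 were at least 2-fold higher. Their median log2 difference was 0.79. Their summed intensity was 30040 to 32342 in irr and 8484 to 9036 in non-irr NSCs, and the brightest probe sets weigh most in such a sum. The rises were unequal. Apoe rose by 4.64 ± 0.08, from a mean of 9.29 to 13.94, the highest of these markers in irr NSCs. Aqp4, below the filter on all non-irr arrays, was at least 26.1-fold higher against the filter value. S100b rose by 0.19 ± 0.05 only. The lower marker was Gfap (-0.18 ± 0.06, limma adjusted p = 0.019), with overlapping groups and values near the filter. This value is from the brightest of 3 Gfap probe sets and does not settle the direction of Gfap RNA. By quantitative PCR and western blot the authors report a rise of GFAP in irradiated NSCs. Of 7 mesenchymal markers, Col1a1, Col1a2 and Pdgfrb were below the filter on all 8 arrays. The other 4 were called higher, against 40.2% of all genes tested. The summed intensity of the list was 2916 to 3108 in irr and 1101 to 1150 in non-irr NSCs. Col3a1 rose by 1.54 ± 0.04. Dcn, Lum and Postn were below the filter on all non-irr arrays and entered the test through irr values alone, so they could hardly be called lower. Among the mesenchymal markers, Col3a1 alone was above the filter in both groups. Against the filter value Dcn, Lum and Postn were at least 1.06-, 2.98- and 1.61-fold higher in irr NSCs. All 8 neural stem cell markers were measured, with 3 higher, 2 lower and 3 not called, a median log2 difference of 0.04, and sums of 58194 to 61771 in irr and 53267 to 55273 in non-irr NSCs. The gap between 3′ and 5′ control probes of actin, a sign of RNA integrity, was 0.42 to 0.58 in irr and 0.22 to 0.29 in non-irr NSCs, and that of Gapdh was -0.09 to -0.03 in irr and -0.13 to -0.03 in non-irr NSCs. The part of the astrocyte and mesenchymal markers and of the actin gap in the lysosomal differences was not tested.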

How the data were processed

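RNA of 4 irr and 4 non-irr NSC cultures was hybridized to Affymetrix mouse arrays (45101 probe sets). The authors read the arrays with GCOS and normalized them with RMA, and the log2 values used are those they deposited (2.48 to 14.98). They worked in R with Bioconductor, and no version of GCOS or of the RMA package is given in the sources used here. RMA equalizes the distribution of values across arrays, so a change shared by most genes would not be seen.

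Probe sets with 1 gene symbol (34945) were used for genes, and those with several (932) or none (9160) were left out, as were 64 controls. Symbols were updated through the Entrez number. The 21919 probe sets that exceeded an intensity of 100 on 1 array or more were tested with limma 3.58.1 in R 4.3.3 (two-sided), with Benjamini-Hochberg adjustment over them. For each gene the probe set brightest on average across all arrays was taken. Summed marker intensities are on the linear scale. Lists are described by counts and medians, without a test. The lysosomal genes, lists, tests and alternatives were chosen with earlier results of these data known. Every lysosomal gene on the array is named, with all array values where it changed at least 2-fold or where its probe sets disagree, and of each other list the 3 largest called changes in each direction. The 4 cultures of a group are described as a quadruplicate, and p-values measure the spread between these arrays, whose number limits the precision. Promoter windows come from RefSeq (GRCm38.p6). Protein sequences were not used here. The closing section gives the alternatives. Figures were drawn with matplotlib 3.10.9.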

Additional observations from a re-analysis of the deposited data

Results flagged for a closer look

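In 80 groups of 4 arrays (40 genes in irr and in non-irr NSCs), 7 had 1 array far from the other 3 relative to the range of the group, where chance gives about 1 in 20 such groups. In irr NSCs these were the highest array of Ctsf (replicate 4 at 11.56, the next at 11.43), of Lipa (replicate 4 at 9.33, the next at 9.17) and of Lamp2 (replicate 2 at 13.77, the next at 13.64). In non-irr NSCs they were the lowest array of Neu1 (replicate 2 at 7.8, the next at 8.0), of Npc2 (replicate 2 at 13.14, the next at 13.26), of Lamp1 (replicate 3 at 12.75, the next at 12.87) and of Grn (replicate 3 at 11.91, the next at 12.14). Each gap is 0.23 or less on the log2 scale, and none of these genes lost its call when that array was left out, while Lamp2 fell to 0.98, just under 2-fold, without irr replicate 2.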

How the results depend on the processing

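Of the 40 lysosomal genes tested, 29 kept their direction and their side of the threshold under all alternatives that could be run for them, 22 at most, and 11 did not. The count of lysosomal genes called higher was 27 of 30 with plain probe set identifiers alone, 29 of 40 in a test against a 1.5-fold change (13.5% of all genes higher and 10.1% lower), and 36 to 39 in the other alternatives. The count at least 2-fold higher was 20 to 22 when 1 array was left out. The lysosomal median of 1.07 was 0.93 with no intensity filter (45 genes), 1.02 with each array centred on its median, 1.23 with reference genes, 0.81 with the mean of all probe sets, 1.14 without irr replicates 1 and 2, and 1.04 to 1.08 with 1 array left out. The 1 gene called lower, Npc1, became 0 with reference genes, against a 1.5-fold change, without irr replicates 3 and 4, and as the lowest count with 1 array left out (0 to 1), which is also that of the membrane proteins. Membrane proteins at least 2-fold higher were 1 with median centring and 4 with reference genes, and 1 to 2 with 1 array left out. Against a 1.5-fold change, 5 lipid genes, 1 of progranulin and the transcription factors and 22 of the other lysosomal genes were called higher and 0 of these others lower. With plain identifiers, 4 glycosidases and 2 lipid genes were at least 2-fold higher, 5 lipid genes were higher, and of progranulin and the transcription factors 1 was higher and 1 at least 2-fold higher. With the mean of all probe sets, 4 glycosidases, 2 lipid genes, 1 of progranulin and the transcription factors and 7 of the other lysosomal genes were at least 2-fold higher. With reference genes, 1 of progranulin and the transcription factors and 20 of the other lysosomal genes were. Gusb changed sign with the mean of its probe sets (-0.11), as did Lipa with plain identifiers (-0.07). These alternatives for the other lysosomal genes were added after seeing the data. The causes were not tested.

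Samples of the groups share replicate numbers, and the labels do not state whether same-numbered samples were handled together. Same-numbered samples deviated together in 2 of 4 numbers (correlations 0.043, 0.376, -0.207 and 0.509), and samples of unlike number correlated from -0.479 to 0.376. So few values cannot decide whether the samples are paired, and the main fit did not pair them. With a replicate block 39 lysosomal genes were called higher, Tfeb among them (0.20, adjusted p = 0.012), and 21 were at least 2-fold higher. Dim probe sets near the intensity of 100 limit what can be said of Manba, Cd68, Mitf, Aqp4, Gfap, Dcn, Lum and Postn. The same holds for single probe sets of Ids, Neu1 and Ppt1, and for the 5 genes not tested.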
